A study of Mus musculus with 19 samples.

Results

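The genes described here serve the contractile apparatus of skeletal muscle and its energy supply, and were measured in lung RNA-seq libraries of 19 mice. They are Acta1, Mylpf, Myh8, Myh3, Neb, Xirp2, Atp2a1, Ryr1, Ckm and Car3, 10 of the 21839 genes in the count table. They were picked from a list of skeletal muscle genes because 2 libraries, nicotine day 2 replicate 3 and saccharin day 2 replicate 6, stood out in them, as a possible sign of tissue carried over with the lung. The high values of these 2 libraries are therefore a description and carry no test. Tests of the 10 genes used the other 17 mice. All mice were wild type C57BL/6J offspring whose dams drank water with 2% saccharin, from mating through pregnancy and nursing, alone or with 200 mg/L nicotine. Postnatal day 2 had 6 saccharin mice (4 female, 2 male) and 5 nicotine mice (3 female, 2 male). Day 16 had 5 saccharin mice (2 female, 3 male) and 3 nicotine mice (2 female, 1 male). Both marked libraries came from day 2 females. Litters are not named in the labels, and the saccharin controls were not compared with plain water, so p-values measure the spread between these mice only. Ages were taken from the age label. For 8 mice it reads day 16, although the shared extraction text mentions day 2 lungs alone, and this was not resolved. Sftpc, the surfactant protein of alveolar type 2 cells, was at 16584 to 45588 CPM in all 19 libraries.

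Skeletal muscle fibres contract when myosin heads of the thick filament pull on actin of the thin filament. An action potential opens the calcium channel of the sarcoplasmic reticulum, calcium lets myosin bind actin, and a calcium pump returns the ion to its store. Fibres of late fetal and newborn limbs and trunk carry embryonic and perinatal myosin heavy chains, which adult fast and slow chains later replace. Lung has smooth muscle in its airways and vessels but no skeletal fibres. Heart, ribs with their intercostal muscle, diaphragm, oesophagus and brown fat lie close to the lung when it is taken from a newborn.

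The stretch before the RefSeq transcription start is shown for 4 of the genes, because these genes stand high together in the same 2 libraries. Each is 250 bases long, in build GRCm38.p6, from 5′ to 3′ on the gene's own strand. Capitals mark every E-box, CANNTG, the motif bound by myogenic helix-loop-helix factors, and every CArG box, the motif of serum response factor.
Acta1 (chr8:123894776-123895025, minus strand): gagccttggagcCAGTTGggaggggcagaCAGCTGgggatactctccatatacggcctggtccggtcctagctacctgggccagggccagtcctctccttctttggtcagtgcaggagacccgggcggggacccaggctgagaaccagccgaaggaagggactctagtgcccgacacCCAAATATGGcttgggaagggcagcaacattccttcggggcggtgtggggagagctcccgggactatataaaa
Mylpf (chr7:127211358-127211607, plus strand): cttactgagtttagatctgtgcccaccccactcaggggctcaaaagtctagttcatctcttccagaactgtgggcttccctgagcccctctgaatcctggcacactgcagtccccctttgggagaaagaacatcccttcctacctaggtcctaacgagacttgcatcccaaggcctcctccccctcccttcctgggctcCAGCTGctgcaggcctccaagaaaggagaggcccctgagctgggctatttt
Myh8 (chr11:67276874-67277123, plus strand): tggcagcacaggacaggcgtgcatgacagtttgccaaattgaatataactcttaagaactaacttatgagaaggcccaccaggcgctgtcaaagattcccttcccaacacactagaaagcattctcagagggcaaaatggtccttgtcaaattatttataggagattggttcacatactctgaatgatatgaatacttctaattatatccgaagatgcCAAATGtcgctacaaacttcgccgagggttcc
Atp2a1 (chr7:126463074-126463323, minus strand): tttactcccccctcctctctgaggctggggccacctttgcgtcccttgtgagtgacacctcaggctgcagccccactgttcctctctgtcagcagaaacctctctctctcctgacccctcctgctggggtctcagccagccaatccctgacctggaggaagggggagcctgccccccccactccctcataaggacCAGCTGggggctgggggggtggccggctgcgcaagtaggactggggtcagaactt
The RefSeq promoter table held 8 of the 10 genes, without Neb and Car3. An E-box lay in 7 of these 8 windows, Ryr1 being the exception, and in 66.2% of all 32851 promoter windows of this length. The Acta1 window held the only CArG box, 73 bases before the start, against 1.47% of all windows. A MEF2 site, bound by myocyte enhancer factors, lay before Myh8 and Xirp2, 2 of 8 against 1.69% of all windows, and that of Myh8 overlapped a TATAAA match. TATAAA lay in 3 of 8 windows (Myh8, Myh3 and Acta1) against 12.4% of all. Both strands were searched. A match describes the sequence and not a bound site.

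The table of counts put 0.795% of all reads of nicotine day 2 replicate 3 on the 10 genes, 114744 of 14431103 counts (exact 95% interval 0.791% to 0.80%). Saccharin day 2 replicate 6 had 0.0366%, 5947 of 16254887 (0.0357% to 0.0375%). Saccharin day 2 replicate 3 followed with 0.0112%, and the other 16 libraries lay between 0.00202% and 0.00465%. These intervals cover counting error only, since reads without molecular identifiers are not independent molecules. Values below are CPM, the usual read counts scaled to a common library size, here after a TMM correction for library composition.

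Among the sarcomere genes, Acta1, the skeletal muscle alpha-actin of the thin filament (ENSMUSG00000031972, chromosome 8, 123891769 to 123894751), was at 3647.92 CPM in nicotine day 2 replicate 3. The other 4 nicotine mice of day 2 had 2.10, 2.66, 3.28 and 3.24 CPM of Acta1. Saccharin day 2 replicates 1 to 5 had 7.03, 7.88, 4.39, 4.02 and 6.23 CPM, and replicate 6 had 225.162 CPM. With the marked libraries left aside, every saccharin mouse lay above every nicotine mouse at this age. At day 16 Acta1 lay between 0.166 and 0.309 CPM in the 5 saccharin mice and at 0.261, 0.445 and 0.262 CPM in the 3 nicotine mice.

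Mylpf, the regulatory light chain of fast myosin (ENSMUSG00000030672, chromosome 7, 127208890 to 127214298), was at 1089.62 CPM in nicotine replicate 3 of day 2, beside 1.77, 2.30, 3.34 and 2.77 CPM in the other nicotine mice. Saccharin replicates 1 to 5 of day 2 had 3.20, 5.53, 3.73, 3.08 and 4.35 CPM of Mylpf, and replicate 6 had 55.53 CPM. Only nicotine replicate 4 overlapped the unmarked saccharin mice. Day 16 values of Mylpf ran from 2.34 to 2.79 CPM in saccharin mice and from 2.00 to 2.34 CPM in nicotine mice.

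Myh8 encodes the perinatal myosin heavy chain (ENSMUSG00000055775, chromosome 11, 67277124 to 67308634) and Myh3 the embryonic one (ENSMUSG00000020908, chromosome 11, 67078300 to 67102291), in the same cluster of myosin genes. Myh8 was at 891.538 CPM in nicotine replicate 3 of day 2, between 1.18 and 2.06 CPM in the other nicotine mice, and at 23.817 CPM in saccharin replicate 6. The other saccharin mice of day 2 had 1.63, 0.991, 0.691, 0.645 and 0.909 CPM of Myh8. At day 16 Myh8 had at most 6 counts per library, with 0 to 0.265 CPM in saccharin and 0 to 0.121 CPM in nicotine mice. In 3 of these 8 libraries there was no Myh8 read, which allows up to 0.123 to 0.146 CPM (3 counts). Myh3 was at 89.1023 CPM in nicotine replicate 3 and 3.49489 CPM in saccharin replicate 6, with 0 to 0.441 CPM in the other 9 mice of day 2 and 0.146 to 0.525 CPM at day 16. Of the 50-base windows of Myh8 transcripts 21.4% also occur in another gene, most often Myh2, so part of its counts could be split or lost, depending on counting options not given in the sources used here.

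Neb encodes nebulin, a giant protein along the thin filament (ENSMUSG00000026950, chromosome 2, 52136647 to 52378474), and was at 189.849 CPM in nicotine replicate 3 against 2.48 to 3.60 CPM in the other nicotine mice of day 2. It was at 9.57859 CPM in saccharin replicate 6 against 0.783 to 3.37 CPM in the other saccharin mice. Xirp2, an actin-binding protein of cell junctions in heart and skeletal muscle (ENSMUSG00000027022, chromosome 2, 67446002 to 67526614), was at 86.4646 CPM in nicotine replicate 3 and 3.23601 CPM in saccharin replicate 6. Nicotine replicates 1 and 2 had 1.21 and 1.63 CPM of Xirp2, and replicates 4 and 5 had 0.193 and 0.059. The other saccharin mice of day 2 had 0.291, 0.104, 0.795, 0 and 0.0649 CPM, the highest in replicate 3. At day 16 Neb lay between 0.878 and 2.403 CPM and Xirp2 between 0.878 and 3.23 CPM over the 8 mice.

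Of the 2 calcium handling genes, Atp2a1 encodes the fast-fibre calcium pump SERCA1 (ENSMUSG00000030730, chromosome 7, 126445858 to 126463108). It was at 489.966 CPM in nicotine replicate 3 against 0.607 to 1.03 CPM in the other nicotine mice, and at 18.6394 CPM in saccharin replicate 6 against 0.645 to 1.16 CPM. Ryr1, the calcium release channel (ENSMUSG00000030592, chromosome 7, 29003344 to 29125179), was at 71.0245 CPM against 0.386 to 1.05, and at 2.84769 CPM against 0.454 to 1.16. Neither marked library overlapped its group for these genes. At day 16 Atp2a1 ran from 1.17 to 2.00 CPM and Ryr1 from 0.606 to 1.70 CPM. Atp2a1 overlaps Rabep2 on the opposite strand, and 18.3% of its windows occur in another gene. The strand setting of the counting is not given in the sources used here, so low counts of Atp2a1 may hold Rabep2 reads.

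The metabolic genes did not follow the same order. Ckm, the muscle creatine kinase that buffers ATP in skeletal muscle and heart (ENSMUSG00000030399, chromosome 7, 19404776 to 19422841), was at 444.482 CPM in nicotine replicate 3. Nicotine replicates 1, 2, 4 and 5 of day 2 had 22.2, 22.7, 4.69 and 9.56 CPM of Ckm. In the saccharin mice of day 2 Ckm ran 13.2, 17.6, 85.8, 16.9, 7.59 and 39.7 CPM for replicates 1 to 6, so that replicate 3 and not replicate 6 was highest. Car3, the carbonic anhydrase of slow muscle fibres and fat cells (ENSMUSG00000027559, chromosome 3, 14863512 to 14872523), was at 381.95 CPM in nicotine replicate 3 against 0.497 to 2.42 CPM in the other nicotine mice. Saccharin replicate 3 had 7.43 CPM of Car3 and replicate 6 had 2.91, with 0.574 to 1.43 CPM in the other 4. At day 16 Ckm lay between 6.14 and 16.1 CPM and Car3 between 4.32 and 22.5 CPM.

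**Figure D1:**
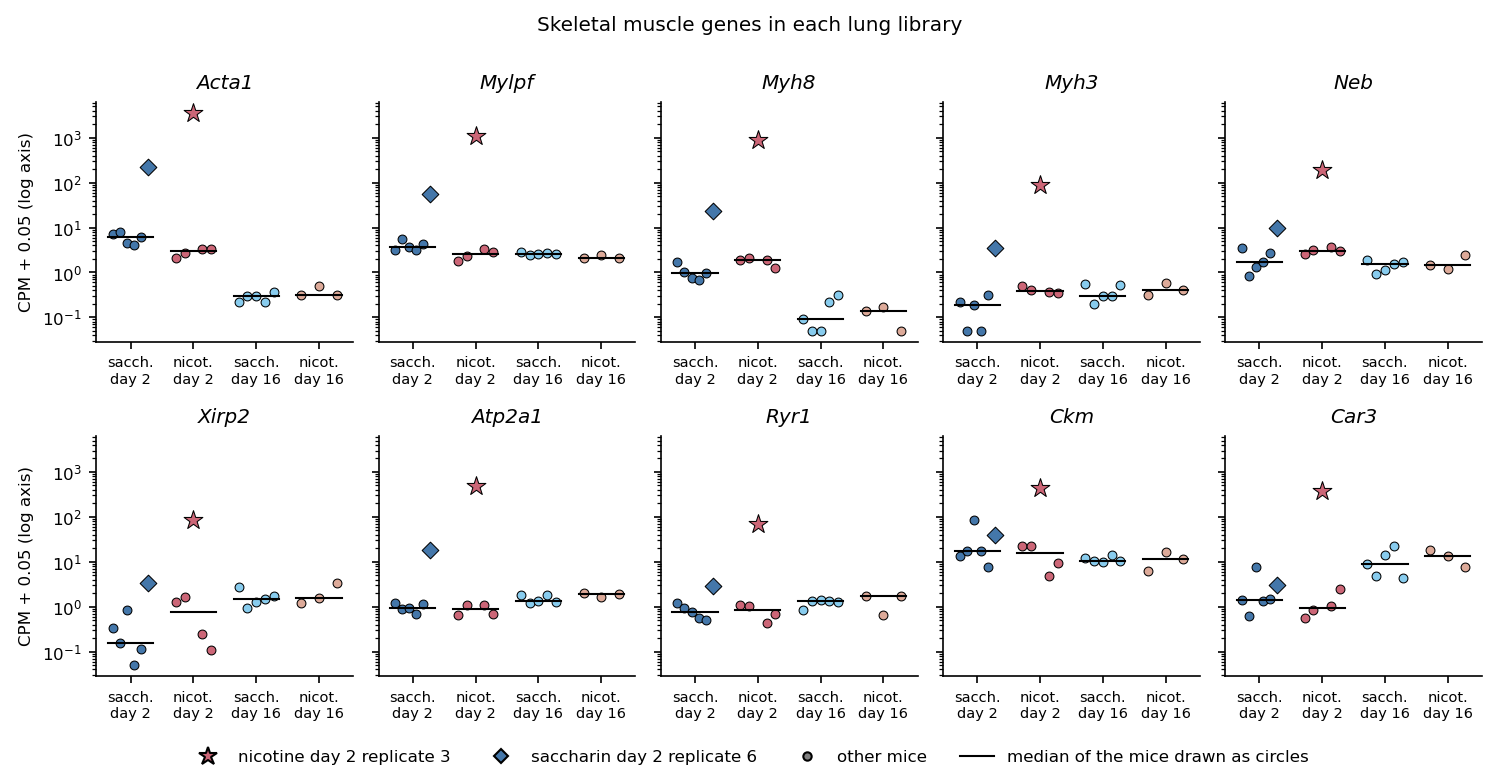
CPM of the 10 genes in each of 19 lung libraries by group, on a log axis after adding 0.05; the star is nicotine day 2 replicate 3, the diamond saccharin day 2 replicate 6, circles are other mice and lines are medians of the circles. The star is the highest point in all 10 panels, and the diamond lies above every circle of its group in 8, all but Ckm and Car3.

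A margin was taken for each gene as the CPM of a marked library, plus 0.5, over the highest CPM of the other mice of its group, plus 0.5. All 10 genes were past 4-fold in nicotine day 2 replicate 3, where 1.16% of 18593 genes were (215 genes). In saccharin day 2 replicate 6 past 4-fold were Acta1, Atp2a1, Myh8, Mylpf and Myh3, 5 of 10, where 0.699% of genes were (130 genes). The choice of the 10 genes used these libraries, so the counts only describe the choice. In saccharin replicate 6 the gene just inside 4-fold was Myh3 (log2 margin 2.39) and the one just outside was Xirp2 (1.53). Each other library, measured against its own group, had 0 to 23 genes past 4-fold.

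The excess over the median of the other mice was larger in the nicotine library, by a factor of 16.6 to 38.8 for all of the genes but Car3. The ratio of the 2 excesses was 16.6 for Acta1, 18.8 for Ckm, 20.99 for Mylpf, 23.6 for Neb and 26.4 for Myh3. It was 27.4 for Xirp2, 27.5 for Atp2a1, 33.1 for Ryr1 and 38.8 for Myh8. Car3 stood apart at 242, with an excess of 381 CPM over the median in nicotine replicate 3 and only 1.58 CPM in saccharin replicate 6. Per kilobase of transcript, Acta1 had the highest level of the 10 genes in both libraries, at 2523 and 155.7 CPM per kilobase, followed by Mylpf at 1422 and 72.5. Ryr1 was lowest in both, at 4.64 and 0.186 CPM per kilobase. Car3 lay next after Mylpf in the nicotine library, at 227.5 CPM per kilobase, and below Ckm, Atp2a1 and Myh8 in the saccharin library, at 1.74.

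Other skeletal muscle genes, grouped in lists by function, were examined in the same 2 libraries. Of 15 fast-fibre sarcomere genes 14 were past 4-fold in nicotine replicate 3, and their summed level was 2933.62 CPM against 9.38 to 17.3 in the other nicotine mice. They included the fast troponins Tnnt3 (803.7 CPM, others up to 2.87), Tnnc2 (531.7, others up to 0.773) and Tnni2 (427.2, others up to 2.30). In saccharin replicate 6, 7 of the 15 were past 4-fold, with a sum of 162.059 CPM against 16.7 to 48.2. The same troponins were at 49.8, 24.1 and 26.6 CPM there, with 5.67, 1.46 and 4.35 as the highest of the others. These troponin genes thus stood out in both libraries, as Acta1 and Mylpf did.

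Slow-fibre genes were past 4-fold in 6 of 11 cases in the nicotine library, led by Mybpc1, the myosin-binding protein C of slow fibres (523.9 CPM, others up to 0.386). In the saccharin library Mybpc1 was the only one of the 11, at 17.8 CPM with 1.05 as the highest of the others. Of 19 genes of excitation-contraction coupling 13 were past 4-fold in the nicotine library and 0 in the saccharin library. Cacna1s, the voltage sensor that opens Ryr1, was at 39.9 CPM against at most 0.484, and Casq1, which stores calcium, at 140.2 against at most 7.12. Of 14 genes of muscle metabolism 9 and 0 were past 4-fold, among them Ampd1, the muscle AMP deaminase, at 42.9 CPM against at most 0.828 in nicotine mice. The 0 counts do not mean that these genes lacked an excess in the saccharin library, where muscle excess was far smaller. Its margins are over the highest other mouse, and saccharin replicate 3 led the slow-fibre, coupling and metabolism sums. These were 601, 282 and 408 CPM, against at most 184, 132 and 166 in the rest of its group. Above every other mouse in saccharin replicate 6 were 11 of the 19 coupling, 2 of the 14 metabolic and 2 of the 11 slow-fibre genes. Of 10 myogenic factors and fusion genes 6 were past 4-fold in the nicotine library and 0 in the saccharin library, with sums of 51.0 CPM against 0.708 to 1.77 and 4.79 CPM against 1.796 to 2.97. Myog and Myod1, which switch on the muscle programme, were at 12.5 and 5.02 CPM in nicotine replicate 3 and both had 0 counts in the other 4 nicotine mice, while in saccharin replicate 6 they were at 0.388 and 0.129 CPM.

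In nicotine replicate 3 genes of bone, tendon and cartilage were high beside the muscle genes. Of 13 bone genes 12 were past 4-fold, with a sum of 751.483 CPM against 136 to 168. Dmp1, a matrix protein of osteocytes, was at 30.7 CPM against at most 0.182, and Sp7, the osteoblast transcription factor, at 16.5 against at most 0.276. Of 6 tendon genes 3 were past 4-fold (Tnmd at 24.4 CPM, others up to 0.121), and of 15 cartilage genes 6 were, with a sum of 405.753 CPM against 54.7 to 129. Fat genes were past 4-fold in 2 of 11 cases (Adipoq and Plin5), red cell genes in 1 of 10 (Klf1) and thymus genes in 1 of 11 (Arpp21). The heart list (0 of 15), smooth muscle (0 of 10), liver, nerve, mesothelium, and oesophagus and skin had none. The lung list (Sftpc, Ager and 8 others) was lowest in this library, at 29718.4 CPM against 31155 to 34907 in the other nicotine mice. Whether the muscle reads came with bone and tendon as one piece of tissue was not tested.

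Saccharin replicate 6 had no gene of the bone, tendon, cartilage, fat, heart or smooth muscle lists past 4-fold. Its muscle excess was far smaller, so an excess of bone or tendon genes smaller by the same factor could stay below 4-fold. This count alone therefore does not show that the marked libraries differ in these tissues. In it 3 of 13 bone, 2 of 6 tendon and 5 of 15 cartilage genes lay above every other mouse of the group. The sums of saccharin replicate 6 for bone (69.1 CPM against 85.2 to 156), tendon (42.1 against 49.8 to 66.4) and smooth muscle (909 against 1263 to 1815) were the lowest of the saccharin mice of day 2. Its cartilage sum was the highest, at 120.897 CPM against 46.1 to 113, and its lung sum the lowest, at 41088 CPM against 42712 to 64723.

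**Figure D2:**
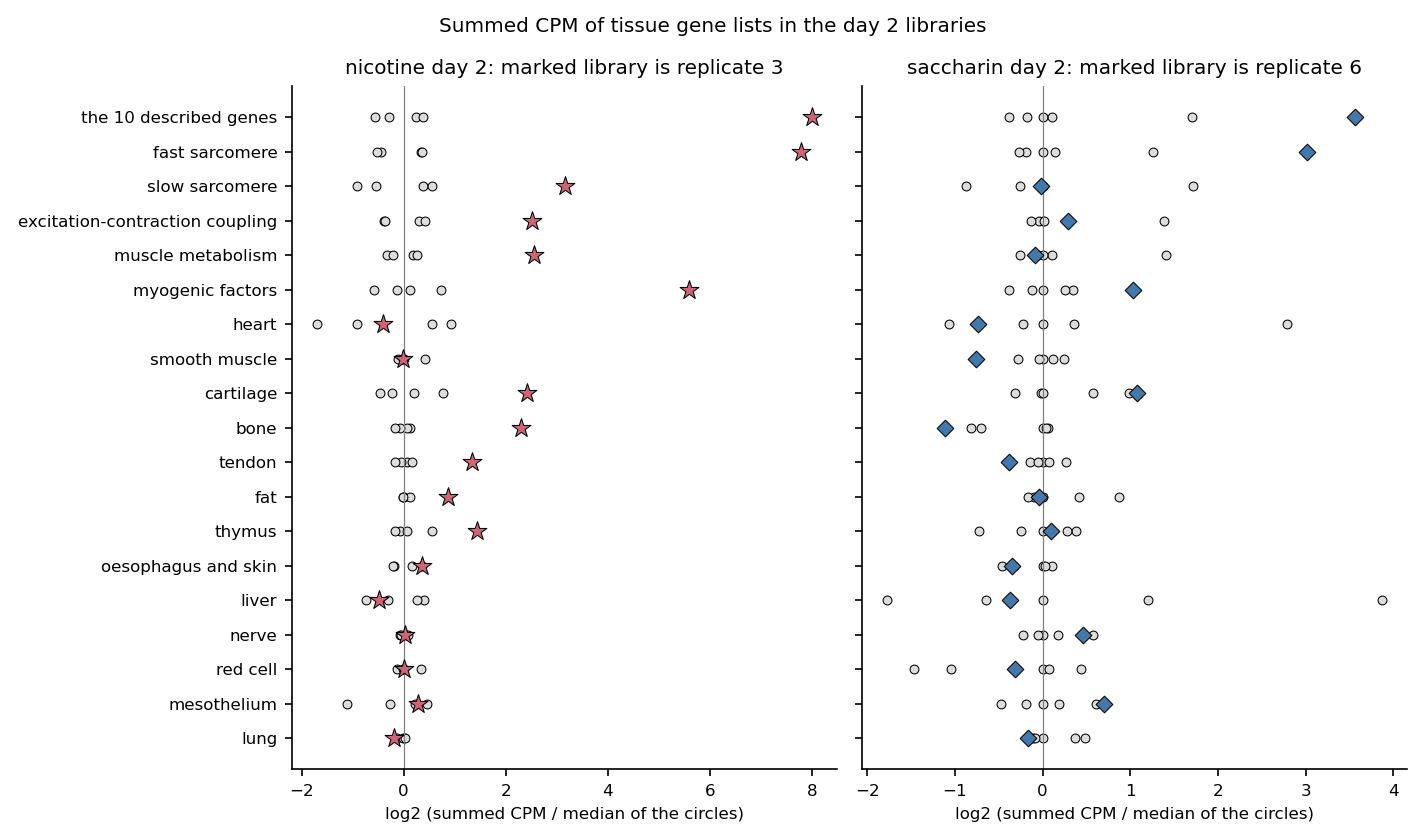
Summed CPM of each tissue list in the day 2 libraries, as log2 ratio to the median of the circles; left nicotine mice with replicate 3 as a star, right saccharin mice with replicate 6 as a diamond, circles the other mice. The star lies right of all circles for the skeletal muscle lists, cartilage, bone, tendon, fat, thymus and, narrowly, oesophagus and skin, and the diamond for the 10 genes, the fast sarcomere, myogenic factors, cartilage and mesothelium.

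Myosin heavy chains differ between embryonic, perinatal and adult fibres, so their make-up was compared. Over Myh1, Myh2, Myh3, Myh4 and Myh8, nicotine replicate 3 had 18722 counts and saccharin replicate 6 had 497, while the other 17 libraries had 3 to 46. Per kilobase, Myh8 made up 73.5% in each of the 2 libraries. Its raw share was 74.0% of counts in both (exact 95% intervals 73.4% to 74.6% and 70.0% to 77.8%). The raw share of embryonic Myh3 was 7.40% (7.03% to 7.78%) and 10.9% (8.27% to 13.9%), without overlap, and that of the adult fast chain Myh1 9.79% (9.36% to 10.2%) and 10.3% (7.74% to 13.3%). Adult fast Myh2 had 8.60% (8.21% to 9.02%) in the nicotine and 4.63% (2.96% to 6.86%) in the saccharin library, and these intervals did not overlap. Myh4, the chain of the fastest adult fibres, had 36 counts and 1 count. Among these chains, perinatal myosin was thus the largest in both libraries. The embryonic chain lay above Myh2 in the saccharin library and below it in the nicotine library. The slow chain Myh7 was left out of these shares. Its excess over the median of the other mice was 115 CPM in the nicotine and 19.3 CPM in the saccharin library. That of Myh8 was 890 and 22.9 CPM. Of the windows of Myh1 and Myh2 31.5% and 29.2% occur in another gene, so the split between the adult chains is uncertain.

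**Figure D3:**
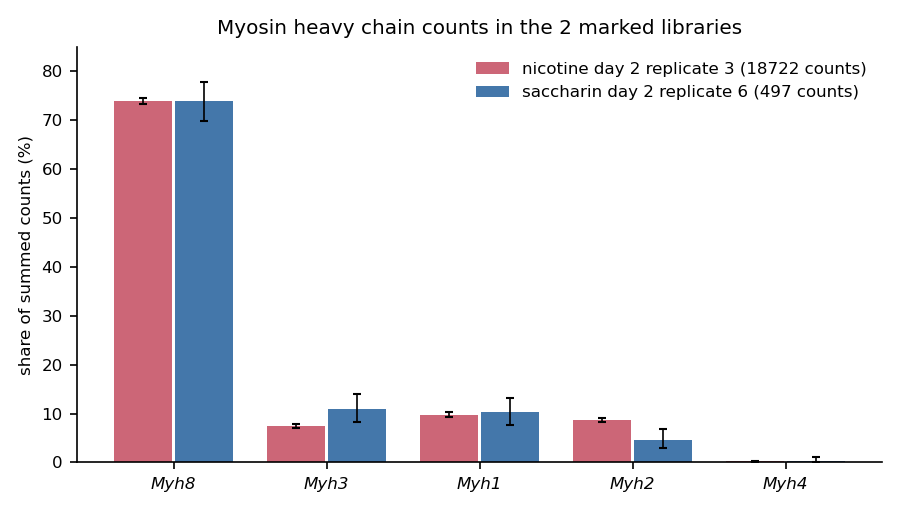
Share of each of 5 myosin heavy chain genes in their summed counts, in percent, for the 2 marked libraries, with exact 95% binomial intervals that cover counting error only. Myh8 takes 74.0% in both, and only the Myh2 and Myh3 intervals of the 2 libraries do not overlap.

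Across all genes, those most like the described genes were sought by the smaller of the 2 log2 margins, over the 11 libraries of day 2. The 15 highest were Tnnc2 (3.65), Mybpc1 (3.57), Myot (3.24), Tnnt3 (3.03), Tnni2 (2.48), Tceal7 (2.27), Myh1, Actn3, Myoz1, Ankrd2, Mybph, Mmp9, Epyc, Myh2 and Mmp13 (1.44). Of these 11 stood on one of the lists, 8 of them on that of the fast sarcomere. Mmp9, a gelatinase of neutrophils and osteoclasts, was at 164.6 CPM in the nicotine library and 124.9 in the saccharin library, with 21.5 and 37.2 as the highest of the others. The 10 genes of largest margin in each library alone differed. In nicotine replicate 3 they were Mybpc1, Tnnc2, Tnnt3, Atp1b4, Tceal7, Myh2, Myot, Myh1, Tnni2 and Sypl2. In saccharin replicate 6 they were the inflammatory genes Cxcl2, Ccl3, Il23a, Il1f9, Selp, Nlrp3, Acod1, Ccl4, Tnf and Il1r2. Cxcl2, a neutrophil chemokine, was at 1577.8 CPM there against at most 49.9 in its group, and at 1.03 CPM in nicotine replicate 3. The part of inflammation in the muscle counts of saccharin replicate 6 was not tested.

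Ckm and Xirp2 are also made by heart muscle, which in mice reaches along the pulmonary veins. Both were read beside the heart genes. The summed heart list was 4745.42 CPM in saccharin day 2 replicate 3 against 328 to 883 in the other saccharin mice of that age, with Nppa, the atrial natriuretic peptide, at 1476.4 CPM. That library had the highest Ckm (85.8 CPM) of the 18 libraries other than nicotine replicate 3, while its Acta1 (4.39 CPM) lay within the range of its group. Nicotine replicates 1 and 2 had heart sums of 1158 and 1494 CPM and replicates 4 and 5 had 242 and 416. Ckm and Xirp2 were both higher in the first pair. That pair was female (mouse numbers 5170 and 5171) and the other male (5327 and 5328). Heart sum, sex and mouse number cannot be told apart between these pairs. In nicotine replicate 3 the heart sum was 595.602 CPM, inside the range of its group. Saccharin replicate 6 had 39.7 CPM of Ckm beside a heart sum of 413.756, against 7.59 to 17.6 CPM of Ckm in replicates 1, 2, 4 and 5. Car3 was read beside the fat list. Saccharin replicate 3 of day 2 had a fat sum of 28.9 CPM against 14.1 to 21.1 in its group, where the mouse with 21.1 had the lowest Car3. At day 16 the highest Car3 (22.5 CPM, saccharin replicate 4) and the highest fat sum (99.5 CPM) were in the same mouse. In nicotine replicate 3, 382 CPM of Car3 stood beside a fat sum of 24.9 CPM, against 13.5 to 14.8 in the other nicotine mice of day 2. The part of heart or fat tissue in the values of Ckm, Xirp2 and Car3 was not tested.

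**Figure D4:**
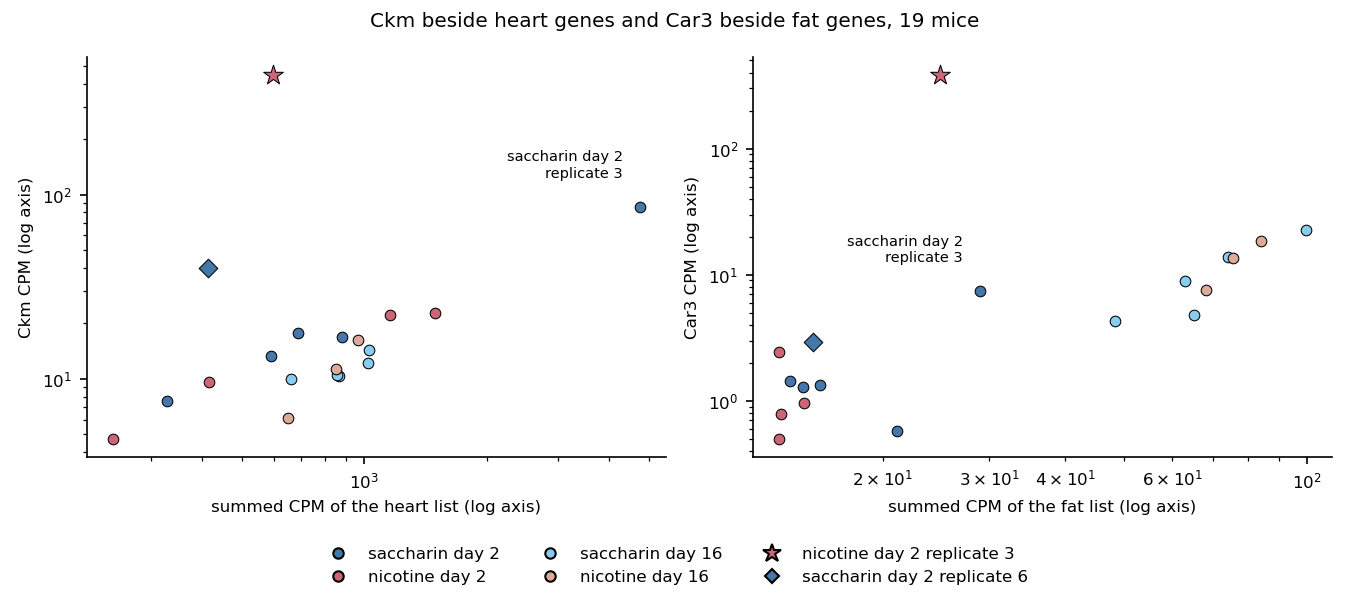
Left, Ckm CPM against the summed CPM of the heart list, and right, Car3 CPM against that of the fat list, for 19 mice on log axes; colours give the group. Saccharin day 2 replicate 3 has the highest heart sum, 4745 CPM, and the nicotine library drawn as a star lies far above the other mice at its heart and fat sums.

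Nicotine and saccharin mice of day 2 were then compared in the 17 other mice. All 10 genes passed the filter on low counts. Over all 15269 genes tested, 18.3% were higher and 20.6% lower in nicotine mice at an adjusted p under 0.05 (edgeR quasi-likelihood test, Benjamini-Hochberg adjustment). Of the 10 genes 0 were higher and 2 were lower, with 3 at an unadjusted p under 0.05, where 7496 of all 15269 genes were. DESeq2 called 1 of the 10 higher and 2 lower, where 3189 of all genes were higher and 3319 lower. In edgeR the median log2 fold change of the 10 genes was -0.07, beside -0.03 for all genes. The share of lower genes, 2 of 10, was close to the background.

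Acta1 fell in nicotine mice at day 2, from 5.91 ± 1.67 CPM (SD, n = 5) to 2.82 ± 0.559 CPM (n = 4). Its log2 fold change was -1.10 (SE 0.21, edgeR adjusted p = 0.00131), and it passed with each of the 17 mice left out in turn (highest adjusted p = 0.00766). With an offset for gene length the Acta1 value shrank to -0.68 (edgeR adjusted p = 0.0282). Within the mice numbered up to 5197, nicotine values of Acta1 were 2.10 and 2.66 CPM against 7.03, 7.88 and 4.39. Within those numbered from 5322 they were 3.28 and 3.24 against 4.02 and 6.23, and a term for these number runs, added after seeing the data, gave -1.10 (adjusted p = 0.00164). Mylpf fell from 3.98 ± 1.003 CPM (n = 5) to 2.55 ± 0.672 CPM (n = 4), a log2 fold change of -0.68 (SE 0.21, edgeR adjusted p = 0.0188). This call was lost without nicotine replicate 1 or 2 or saccharin replicate 2 (adjusted p = 0.0553 to 0.0772), and with an offset for gene length (-0.15, adjusted p = 0.607). In bulk tissue, fewer cells of a type and less RNA per cell cannot be told apart. The part of carried-over muscle in these low values of Acta1 and Mylpf was not tested.

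The other 8 genes did not pass at day 2. Myh3 had a log2 fold change of 1.58 (SE 0.63, edgeR adjusted p = 0.0549), with 0.355 CPM in nicotine and 0.114 CPM in saccharin mice on average, 5 to 8 counts in each nicotine library and 0 to 4 in each saccharin library. Xirp2 had 1.37 (SE 0.80, edgeR adjusted p = 0.181), and 2.65 (adjusted p = 0.0427) without the heart-rich saccharin replicate 3. Myh8 had 0.84, Neb 0.62, Ryr1 0.03, Atp2a1 -0.16, Car3 -0.72 and Ckm -0.91, each less than 2 standard errors from 0.

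Other muscle genes were tested in the same 17 mice. Of the 15 fast sarcomere genes 10 were tested, and 3 fell and 0 rose in nicotine mice at day 2 (median -0.83). With 20.6% of all genes lower, so small a count is near the background. The 3 were Tnnt3 (-1.19, edgeR adjusted p = 0.0112), Tnni2 (-0.98, adjusted p = 0.0123) and Tmod4 (-1.20, adjusted p = 0.0103). Of 10 slow sarcomere genes tested none passed (median -0.66). In excitation-contraction coupling 13 of 19 were tested. Jph1 and Jph2, which tether the calcium store to the surface membrane, rose by 0.75 and 0.58, and Cacna1s and Chrna1, a subunit of the muscle acetylcholine receptor, fell by 2.23 and 1.10. The Chrna1 call was lost without nicotine replicate 2 or 5 (edgeR adjusted p = 0.0509 to 0.0574). Of 13 metabolic genes tested, Pygm rose by 0.57. Cox7a1 and Cox8b, subunits of cytochrome oxidase, were called lower by -1.54 and -1.36. The heart-rich saccharin replicate 3 held 23.4 CPM of Cox7a1 and 24.9 CPM of Cox8b, against at most 6.31 and 7.72 in the other 4 saccharin mice. Without it the values were -0.67 (adjusted p = 0.208) and -0.66 (adjusted p = 0.152). Both calls were also lost without nicotine replicate 2, 4 or 5 or saccharin replicate 2, and that of Cox7a1 without nicotine replicate 1. Only 2 myogenic factors passed the filter. Mymk had -1.89 (adjusted p = 0.0224), lost without nicotine replicate 1, 2 or 5 or saccharin replicate 2 (adjusted p = 0.0602 to 0.0736). Msc had -0.89 (adjusted p = 0.0482), lost without any of 12 mice of both ages (highest adjusted p = 0.138, without nicotine replicate 5). The calls of the other genes named here passed with each of the 17 mice left out, a check of the list genes added after seeing the data. The list genes were not checked with the gene length offset.

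The same contrast with all 19 mice gave another direction for 5 of the 9 genes it could test, since Myh3 did not pass the filter there. Of the 9 genes 7 were called higher and 0 lower, where 2940 of all 15143 genes tested were higher and 3283 lower. Acta1 had a log2 fold change of 3.24 (SE 1.79, edgeR adjusted p = 0.154) and Mylpf 3.71 (SE 1.45, adjusted p = 0.0496). Myh8 had 4.43, Atp2a1 4.29, Car3 4.43, Xirp2 4.33, Ryr1 3.42 and Neb 3.42, and Ckm 1.46 did not pass. The rule used these 2 libraries, so these values describe their weight in the contrast. The 2 libraries also widened the standard error of Acta1 in the day 16 contrast, from 0.36 to 4.30, although no day 16 mouse was added. The bone list changed as well, from 1 higher and 4 lower of 8 tested in 17 mice to 2 higher and 0 lower in 19. Of all genes 18.3% were higher and 20.6% lower in the 17 mice.

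**Figure D5:**
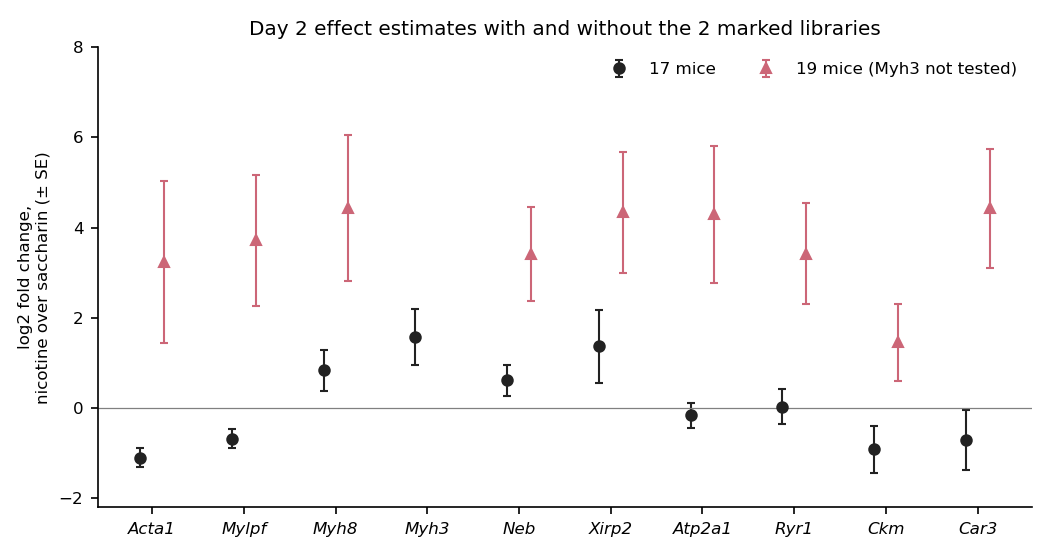
Log2 fold change of nicotine over saccharin at day 2 for each gene, with its standard error, in 17 mice (circles) and in all 19 (triangles). Acta1 goes from -1.10 to 3.24 and Mylpf from -0.68 to 3.71 when the 2 marked libraries enter.

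At day 16 none of the 10 genes differed between nicotine and saccharin mice in edgeR or DESeq2, and 0 had an unadjusted p under 0.05. Over all genes edgeR called 0% higher and 0% lower, with 360 of 15269 at an unadjusted p under 0.05, and DESeq2 called 8 higher and 5 lower. The log2 fold changes of the 10 genes ran from -0.37 (Myh8, SE 0.97) to 0.63 (Acta1, SE 0.36), with a median of 0.18. The 3 nicotine mice and the low counts of Myh8 and Acta1 limit this comparison.

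Between day 2 and day 16 in saccharin mice, 21.7% of all genes were higher and 22.8% lower. Of the 10 genes 3 were higher and 3 lower at day 16 (edgeR, 17 mice), with a median of 0.07 beside -0.06 for all genes. These shares are near the background. Acta1 fell by 4.73 on the log2 scale (SE 0.26, edgeR adjusted p = 2.35e-09), from 5.91 ± 1.67 to 0.227 ± 0.0601 CPM (SD, n = 5 and 5), without overlap. Perinatal Myh8 fell by 3.28 (SE 0.59, adjusted p = 0.000301), from 0.973 ± 0.393 to 0.0951 ± 0.117 CPM, and by 4.02 without saccharin day 16 replicate 5. Mylpf fell by 0.67 (adjusted p = 0.00969), and had an adjusted p = 0.0704 with the gene length offset.

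Car3 rose by 2.29 (SE 0.54, edgeR adjusted p = 0.00251), from 2.41 ± 2.82 to 10.9 ± 7.55 CPM (SD, n = 5 and 5). Of 8 fat genes tested 5 rose as well, where 21.7% of all genes did. Xirp2 rose by 2.48 (SE 0.73, adjusted p = 0.0108). Without the heart-rich and Car3-rich saccharin day 2 replicate 3 these were 3.19 and 3.66. Atp2a1 rose by 0.64 (SE 0.24, adjusted p = 0.0408), a call lost without any of saccharin day 16 replicates 1, 3 and 4, nicotine day 16 replicates 1 and 3, or saccharin day 2 replicates 2, 3 and 4 (adjusted p = 0.0504 to 0.103). It was also lost with the term for mouse-number runs (0.62, adjusted p = 0.072) and with upper-quartile factors (0.57, adjusted p = 0.0617). The number-run term separates day 2 mice only. All day 16 mice carry lower numbers than any day 2 mouse, so age and mouse number cannot be told apart. Myh3 had 1.46 (adjusted p = 0.0531), and Ryr1, Neb and Ckm did not pass.

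Of the fast sarcomere list 2 of 10 tested genes rose and 3 fell with age, among them Tnnc2 by 1.84 and Tnnt3 by 0.999. In the slow list Tnni1, the slow troponin I of fetal heart and slow fibres, fell by 5.43 and Myl2 by 4.72, while Tcap rose by 2.00. Of 13 metabolic genes 4 rose and 0 fell, led by Ckmt2, the mitochondrial creatine kinase, at 3.69. These small counts stand beside 21.7% of all genes higher and 22.8% lower, and no set test was run.

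The nicotine effect was also compared between the ages. Its difference passed for Acta1 only among the 10 genes, where 2.57% of all genes were higher (392 genes). The estimate was 1.73 (SE 0.42, edgeR adjusted p = 0.0351): Acta1 had -1.10 at day 2 and 0.63 at day 16. The call was lost without any of 10 mice, nicotine day 2 replicates 1, 2, 4 and 5, all 3 nicotine day 16 mice, saccharin day 2 replicate 2, or saccharin day 16 replicates 1 and 3 (adjusted p = 0.0521 to 0.137), and with the gene length offset (1.37, adjusted p = 0.0794). The differences of the other 9 genes ran from -1.38 (Myh3) to 0.81 (Car3), and none passed.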

How the data were processed

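Lung RNA was snap frozen, made into TruSeq libraries and read as 50 nt single ends on an Illumina HiSeq2500, per the labels. The authors deposited 1 table of raw counts per Ensembl gene and mouse, and the tools listed in the submitters' processing notes are STAR 2.4, featureCounts 1.4.6 and CASAVA 1.8.2, with build GRCm38. Not given in the sources used here: annotation, strand setting and treatment of reads with several matches. Of 21839 genes 21628 matched GENCODE M21, which gave symbols and coordinates, and the 211 others held 0.041% of counts. Totals ran from 12976749 to 27302477 per mouse.

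The genes, lists and tests were chosen with earlier results of these data known. Genes were tested with edgeR 4.0.16 (R 4.3.3) by its robust quasi-likelihood F test, TMM factors, filterByExpr with a minimum count of 10, and group and sex terms. The 17 mice other than the 2 marked ones gave 12 residual degrees of freedom and a biological coefficient of variation of 20.4%. The marked libraries stood out against these mice, so the choice of genes was not fully separate from them. Benjamini-Hochberg adjustment ran over all 15269 genes. CPM come from all 19 mice. Named are the 10 genes, up to 5 genes per list above 1 CPM by margin, the 15 genes of largest smaller margin and the 10 of largest margin in each library. Other genes given were chosen after their values were seen. Lists were described by counts and medians, without a set test. Alternatives were all 19 mice, RLE or upper-quartile factors, DESeq2 1.42.0, other low-count filters, no sex term, a gene length offset, each mouse left out, and a term for mouse-number runs added later. Replicate numbers follow record order and pair nothing.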

Additional observations from a re-analysis of the deposited data

Results flagged for a closer look

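A library was marked where its gap to the nearest mouse of its group took up more of the group's range than Dixon's 95% critical value allows, in groups of 4 to 10. Chance marks about 1 in 20 groups. Of 87 values examined 39 were marked, 20 of them in nicotine day 2 replicate 3 and 10 in saccharin day 2 replicate 6. The 10 genes were chosen because these 2 libraries stood out in them, so their marks there, and those of their sum and of other skeletal muscle lists, are a description with no test, and the chance share does not apply to them.

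All 10 genes were marked in nicotine replicate 3, with CPM of 3647.92 for Acta1, 1089.62 for Mylpf, 891.538 for Myh8, 489.966 for Atp2a1 and 444.482 for Ckm. Car3 was at 381.95, Neb at 189.849, Myh3 at 89.1023, Xirp2 at 86.4646 and Ryr1 at 71.0245 CPM there. In the same library the summed CPM was 7381.92 for the 10 genes, 2933.62 for the fast sarcomere, 1587.18 for the slow sarcomere, 703.297 for excitation-contraction coupling and 947.315 for muscle metabolism. The sums of myogenic factors (50.9524), cartilage (405.753), bone (751.483), tendon (169.327) and fat (24.8972) were marked there too.

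In saccharin replicate 6 the marked genes were Acta1 (225.162 CPM), Mylpf (55.53), Myh8 (23.817), Atp2a1 (18.6394), Neb (9.57859), Myh3 (3.49489), Xirp2 (3.23601) and Ryr1 (2.84769). Its sums of the 10 genes (384.891) and of the fast sarcomere (162.059) were marked as well.

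Saccharin day 2 replicate 3 was marked for Car3 (7.42762 CPM) and for the sums of heart (4745.42), slow sarcomere (601.015), muscle metabolism (408.208) and excitation-contraction coupling (281.662). Nicotine day 2 replicate 5 was marked for the smooth muscle (3314.69) and red cell (8897.19) sums and saccharin day 2 replicate 2 for liver (323.588). Ryr1 was marked low in saccharin day 16 replicate 1, at 0.790497 CPM. The nicotine effect on Acta1 differed between the ages by 1.73 on the log2 scale in edgeR (adjusted p = 0.0351), a call lost without any of 10 mice (adjusted p = 0.0521 to 0.137) and with the gene length offset (1.37, adjusted p = 0.0794).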

How the results depend on the processing

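No paired analysis was possible because the labels carry no replicate numbers. With all 19 mice the day 2 contrast had 7 of the 9 genes tested higher and 0 lower, where 2940 of all 15143 genes were higher and 3283 lower. The direction turned for Mylpf (3.71), Atp2a1 (4.29), Acta1 (3.24), Car3 (4.43) and Ckm (1.46). At day 16 it turned for Atp2a1 (-0.24), Ryr1 (-0.026), Acta1 (-0.36) and Car3 (-0.18). Between the ages 0 genes were then higher and 1 lower, with Atp2a1 at -0.33, and the Acta1 difference became -3.59, with 0 genes higher. These changes come with the 2 libraries that chose the genes. For the settings that follow the cause was not tested.

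DESeq2, no sex term and the number-run term each called 1 gene higher at day 2 (Myh3 at an adjusted p of 0.0462 and 0.0476, and Xirp2 at 0.0308). The gene length offset left 1 lower, no difference between ages for Acta1 (0 genes), and put Ryr1 at -0.71 and Neb at -0.043 at day 2 and Ryr1 at -0.13 at day 16. Upper-quartile factors gave -0.027 for Ryr1 at day 2. Over all genes at day 16 DESeq2 called 8 higher and 5 lower, no sex term 2 higher, and the length offset 1 higher and 2 lower. For the difference between ages DESeq2 called 728 genes higher and 739 lower.

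Leaving out each mouse gave 2032 to 3506 lower genes at day 2, with 0 to 1 of the 10 genes higher and 1 to 2 lower, Ryr1 at -0.18 to 0.27 and Car3 at -1.64 to 0.13. At day 16 it gave 0 to 7 higher and 0 to 1 lower genes, Myh8 at -1.01 to 0.35, Ryr1 at -0.13 to 0.49, Xirp2 at -0.77 to 0.59, Car3 at -0.027 to 0.38 and Ckm at -0.68 to 0.11. The difference between ages had 3 to 1051 higher genes (3 without nicotine day 16 replicate 3, 1051 without saccharin day 2 replicate 1), 0 to 890 lower, and 0 to 1 of the 10 higher.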
